A study of Mus musculus with 4 samples.

Results

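The genes described here are 10 immune checkpoint genes, listed by symbol and found once each among the 28006 features of the matrices. The list holds 8 receptors and 2 ligands. Pdcd1 (PD-1), Ctla4, Lag3, Havcr2 (TIM-3) and Tigit encode inhibitory receptors. Icos, Tnfrsf4 (OX40) and Tnfrsf9 (4-1BB) encode costimulatory receptors. Cd274 (PD-L1) and Pdcd1lg2 (PD-L2) encode the ligands of PD-1. Receptors were measured in CD8 T cells, Foxp3 T cells and the remaining T cells, and ligands in dendritic cells, macrophages and epithelial cells.

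The cells came from lung adenocarcinomas of mice on a mixed 129/B6 background. Both genotypes carried the KrasFSF-G12D, p53frt and Rosa-FSF-CreERT2 alleles. KP mice were heterozygous for the floxed alleles (Foxa1flox/+, Foxa2flox/+), and KPF1F2 mice were labelled Foxa1flox, Foxa2flox. FoxA1 and FoxA2 are transcription factors of lung epithelium. Tumours were started with an adenovirus that makes Flp recombinase from the promoter of surfactant protein C, a gene of alveolar type 2 cells. Both genotypes received 4 daily injections of tamoxifen (120 mg/kg), which activates CreERT2, starting 10 weeks after infection, and tumours were collected at week 12. Each genotype gave 1 library of the dissociated cells as they were (pre-depletion) and 1 from which leukocytes and endothelium had been removed with magnetic beads against CD45 and CD31 (post-depletion). The labels give neither the age of the mice nor how many were pooled, nor whether pre- and post-depletion cells shared mice.

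T cells that meet their antigen put costimulatory and inhibitory receptors on their surface, and the balance between both kinds sets how strongly the cell responds. Regulatory T cells, which depend on the transcription factor Foxp3, carry CTLA-4, ICOS, OX40 and 4-1BB at high levels in tumours. PD-1 is engaged by PD-L1, which many myeloid and tumour cells make after exposure to interferon gamma, and by PD-L2, which is found mainly on dendritic cells and macrophages.

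With 1 library for each genotype and stage, no difference between genotypes could be tested, and every interval below is an exact 95% interval that covers counting error only. UMIs (unique molecular identifiers, which count RNA molecules) of 1 cell are not independent of each other. These intervals can therefore be too narrow even within a library, above all where few cells hold most UMIs. They also hold nothing of the spread between mice. Levels are the summed UMIs of a gene in a class of cells per 1000000 UMIs of that class (CPM). The deposited matrices held 4662 to 8536 barcodes and 47805086 to 63010016 UMIs each, and 2475 to 3616 cells were kept in each, with median depths of 7080 to 16410 UMIs. Any pair of libraries shared 6 to 16 barcodes. Epithelial cells checked the labels in part: the feature Foxa1_2, one of the pieces of the targeted genes added to the reference, stood at 16.6 CPM in KP and 10.8 CPM in KPF1F2 before depletion, and at 16.7 and 3.60 CPM after it. Another piece, Foxa1_1, stood at 4.19 and 5.39 CPM before depletion, and at 2.70 and 7.97 CPM after it. Which part of the gene each piece covers is not given in the sources used here. Xist reached 834 and 873 CPM in KP cells but 0.163 and 0.289 CPM in KPF1F2 cells, so sex and genotype cannot be told apart. The titles also number the KPF1F2 pre-depletion library apart from the others (18385 against 18836).

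T cells were lymphocytes with a UMI of Cd3d, Cd3e or Cd3g. CD8 T cells had a UMI of Cd8a or Cd8b1 and none of Foxp3 or Cd4, Foxp3 T cells had a UMI of Foxp3 and none of Cd8a or Cd8b1, and all remaining T cells were counted as other T cells. The pre-depletion libraries gave 84 KP and 138 KPF1F2 CD8 T cells, with median depths of 5754 and 4128 UMIs. Foxp3 T cells numbered 119 and 69 (medians 4324 and 3850), and other T cells 490 and 355 (medians 4966 and 4114). A cell whose marker was not captured falls among the other T cells, of which 190 and 133 had a Cd4 UMI. They also hold 14 KP and 6 KPF1F2 cells with a CD8 UMI beside one of Foxp3 or Cd4, among them 10 and 1 with Foxp3. Defining genes differed in level between the libraries: Cd3e stood at 312 and 688 CPM in CD8 T cells, at 329 and 709 CPM in Foxp3 T cells and at 349.7 and 757 CPM in other T cells, whereas Foxp3 in its own class stood at 420.2 and 396 CPM. After depletion only 1 KP and 5 KPF1F2 T cells were left, so the receptors in T cells were compared before depletion only. B cells served as background for the receptors at a similar depth (medians 4026 and 4048 UMIs). A UMI of Pdcd1 or of Icos was seen in 0 of 169 KP B cells, which allows a share of up to 1.78%, and in 0 of 360 KPF1F2 B cells, which allows up to 0.833%. The shares of B cells with a UMI of the other receptors were 0 to 2.37% in KP and 0 to 2.50% in KPF1F2, with Ctla4 highest.

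In CD8 T cells, which kill tumour cells, Pdcd1, Lag3 and Tnfrsf9 were higher in KPF1F2 than in KP by more than 2-fold, and Ctla4 and Icos were near the same level in both in the summed counts. Pdcd1 (ENSMUSG00000026285, 5 exons, minus strand of chromosome 1, 94038305 to 94052553 in GRCm38) encodes the receptor that dampens signalling through the T cell receptor. It stood at 50.4 CPM in KP and 127 CPM in KPF1F2, a ratio of 2.52 (1.61 to 4.07). The KP value rests on 26 UMIs in 13 cells and the KPF1F2 value on 86 UMIs in 37 cells. The share of CD8 T cells with a Pdcd1 UMI was 15.5% in KP and 26.8% in KPF1F2, and 6.17% and 15.8% once every cell was thinned to 2000 UMIs. KPF1F2 was the higher library on both scales, and the part of depth was not tested.

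Lag3 (ENSMUSG00000030124, 8 exons, minus strand of chromosome 6, 124904361 to 124911705) encodes a receptor for MHC class II. It was detected with 5 UMIs in 5 KP cells (9.69 CPM) and with 32 UMIs in 16 KPF1F2 cells (47.2 CPM), a ratio of 4.87 (1.88 to 16.0). Thinned shares were 0 in KP and 6.77% in KPF1F2. Tnfrsf9 (ENSMUSG00000028965, 8 exons, plus strand of chromosome 4, 150914562 to 150946102), a costimulatory receptor made after activation, stood at 9.69 CPM in KP and 48.6 CPM in KPF1F2 (ratio 5.02, 1.95 to 16.5). Few cells carried that difference: 27 of the 33 KPF1F2 UMIs came from 5 cells and 11 from 1 cell, and the KP value rests on 5 UMIs. Of the 33 UMIs, 20 came from 3 cells that clustered with regulatory T cells (sub-cluster 1, led by Foxp3 and Il1rl1). Sub-clusters 0, 7 and 8, which held most CD8 T cells, gave 4, 1 and 0 KP UMIs and 0, 2 and 5 KPF1F2 UMIs.

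Ctla4 (ENSMUSG00000026011, 4 exons, plus strand of chromosome 1, 60887000 to 60915832), which competes with CD28 for its ligands, stood at 87.2 CPM in KP and 103 CPM in KPF1F2 CD8 T cells (ratio 1.18, 0.802 to 1.76). Icos (ENSMUSG00000026009, 5 exons, plus strand of chromosome 1, 60977927 to 61000320), a relative of CD28, stood at 182 and 181 CPM (ratio 0.996, 0.755 to 1.32). Both intervals include equal levels. In thinned cells the log2 ratios were 1.10 for Ctla4 and 0.59 for Icos, against 0.24 and -0.01, and with whole sub-clusters that of Ctla4 was -0.75, so near equality holds for the summed counts of this class only. Tnfrsf4 (ENSMUSG00000029075, 7 exons, plus strand of chromosome 4, 156013843 to 156016612), a costimulatory receptor best known from CD4 T cells, gave 4 UMIs in KP and 20 in KPF1F2, 8 of them in 1 cell (7.75 and 29.5 CPM). Havcr2 (ENSMUSG00000020399, 8 exons, plus strand of chromosome 11, 46454935 to 46481255), a receptor of exhausted T cells and of myeloid cells, gave 9 and 4 UMIs, and 7 of the 9 came from 1 cell. Tigit (ENSMUSG00000071552, 4 exons, minus strand of chromosome 16, 43648867 to 43664146), which competes with the activating receptor CD226, gave 3 and 4 UMIs. No difference of Havcr2 or Tigit was detectable in CD8 T cells at this depth, and Tigit gave only 73 UMIs in all 4 matrices.

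A gene counted as measured where its mean over both libraries was at least 20 CPM with at least 20 UMIs. Of the 8 receptors, 5 were measured in CD8 T cells and 3 of these were at least 2-fold higher in KPF1F2. Of 4970 genes, 9.03% differed by 2-fold in either direction (278 higher and 171 lower). Lag3 and Tnfrsf9, both under 20 CPM in KP, counted as measured only through their KPF1F2 level. The count of 3 and the median over measured receptors therefore depend in part on this filter. The median log2 ratio was 1.31 over the 5 measured receptors and 0.78 over all 8, against 0.09 over all measured genes. Summed over the 8 receptors, CD8 T cells held 370.1 CPM in KP and 548 CPM in KPF1F2 (ratio 1.48, 1.24 to 1.77). This sum includes small subsets rich in receptor UMIs, sub-cluster 1 (1 KP and 3 KPF1F2 cells) and sub-cluster 3 (1 and 8 cells). It was not taken without them. Taking whole sub-clusters in place of marker UMIs gave a log2 ratio of -0.05 for this sum and 0.74 for Pdcd1, against 0.57 and 1.31, but that rule counted as CD8 the whole of sub-cluster 5, where 8 of 156 T cells were in the CD8 class. Where only sub-clusters with at least 20% of their T cells in the CD8 class were taken, a choice made after seeing the data, the log2 ratio was 1.93 for Pdcd1 and 2.44 for Lag3 but -0.22 for Tnfrsf9, whose main value was 2.22.

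**Figure D1:**
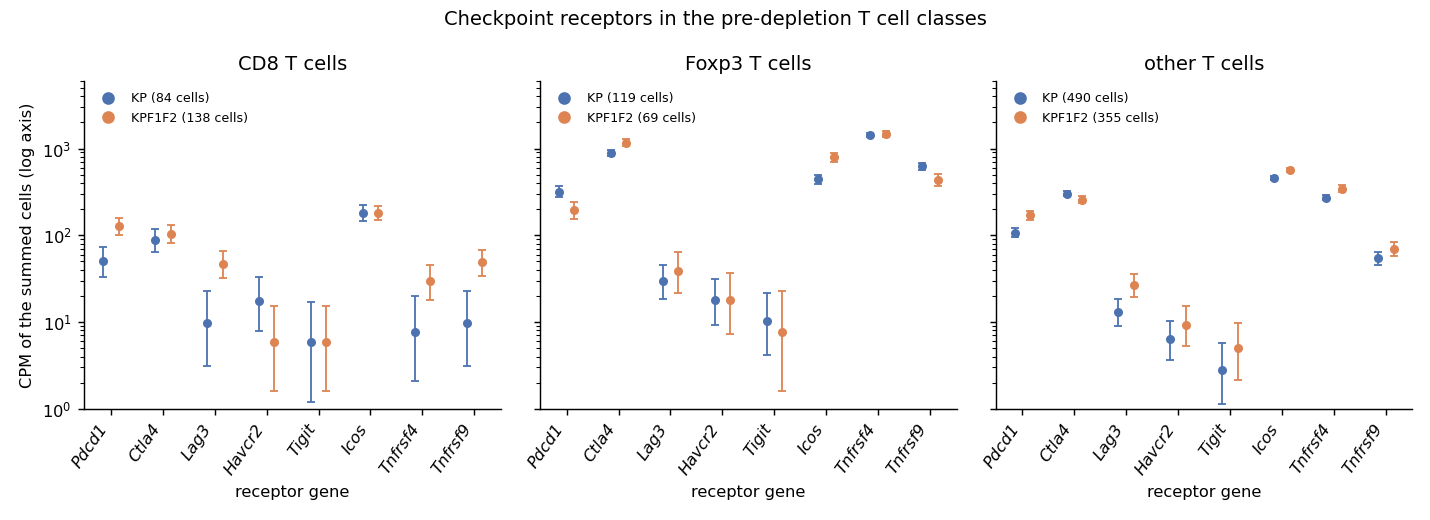
Level of each receptor in CD8, Foxp3 and other T cells before depletion, in CPM on a log axis, for KP and KPF1F2. Bars are exact Poisson 95% intervals. Tnfrsf4 and Ctla4 sit at 899 CPM or more in Foxp3 T cells of both libraries, and Tigit at or under 10.4 CPM in all 3 classes.

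The makeup of the CD8 T cells differed between the libraries, and the Pdcd1 and Ctla4 ratios were not the same in every subset. Lymphocytes were split into 10 sub-clusters without use of the receptor genes. Sub-cluster 0 (led by Dapl1, Igfbp4 and Ly6c2) held 31 of the 84 KP and 21 of the 138 KPF1F2 CD8 T cells, sub-cluster 7 (Ret, Gzmk, Esm1) held 6 and 29, and sub-cluster 8 (Ly6c2, Ifit3, Klra5) held 39 and 66 (46.4% and 47.8%). Within sub-cluster 8, which had about the same share in both, Pdcd1 stood at 29.4 and 119 CPM (7 and 31 UMIs, ratio 4.05, 1.75 to 10.9). Within sub-cluster 7 it stood at 120.1 and 102 CPM (ratio 0.849, 0.233 to 4.65), and in sub-cluster 0 it gave 1 UMI in each library. Ctla4 was lower in KPF1F2 in sub-cluster 8 (105 and 34.5 CPM, ratio 0.329, 0.135 to 0.729) and was seen with 1 KP and 17 KPF1F2 UMIs in sub-cluster 0. Icos had the same pattern: its ratio was 0.491 (0.278 to 0.843) in sub-cluster 8 and 3.01 (1.28 to 7.60) in sub-cluster 0. Over CD8 T cells as a whole, both genes had ratios near 1. Smaller subsets also held many UMIs. Sub-cluster 3 (Il17f, Il17a, Il22) held 1 KP and 8 KPF1F2 CD8 T cells. They gave 8 and 19 UMIs of Pdcd1, 1 and 12 of Lag3, and 1 and 28 of Icos. Sub-cluster 5 went the other way for Icos, with 37 and 14 UMIs in 5 and 3 cells.

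Cells with Pdcd1 often held other inhibitory receptors. In KP, 8 of 13 Pdcd1-positive CD8 T cells had a Ctla4 UMI (61.5%, 31.6 to 86.1), against 19.7% of the 71 others. In KPF1F2 it was 17 of 37 (45.9%, 29.5 to 63.1), against 15.8% of the 101 others (9.33 to 24.4). Lag3 was seen in 3 of 13 and 10 of 37 Pdcd1-positive cells, and in 2.82% and 5.94% of the rest. Depth was similar with and without a Pdcd1 UMI (medians 5659 and 5800 UMIs in KP, 4312 and 4117 in KPF1F2). Makeup was not: the 31 KP and 21 KPF1F2 cells of sub-cluster 0 gave 1 Pdcd1 UMI in each library. The part of makeup was not tested. The share of CD8 T cells with UMIs of at least 3 of the 8 receptors was 13.1% in KP and 15.9% in KPF1F2, and 2.47% and 8.27% after thinning.

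Other genes of T cell state, taken from lists that had been chosen with earlier results of these data known, are given as counts. Over all 4970 genes measured in CD8 T cells, 9.03% differed by 2-fold. Of 11 measured effector genes in CD8 T cells, 4 were at least 2-fold higher in KPF1F2 and none lower, among them the granzyme genes Gzmk (118 and 361 CPM, ratio 3.06, 2.30 to 4.11) and Gzma (98.8 and 252 CPM). The perforin gene Prf1 stood at 31.0 and 26.5 CPM. Of 10 measured activation and exhaustion genes, 5 were at least 2-fold higher, such as Nr4a2 (122 and 385 CPM, ratio 3.15, 2.39 to 4.22), a transcription factor induced by T cell receptor signalling. Cd69, also induced by activation, was lower (426 and 276 CPM, ratio 0.647, 0.529 to 0.789). Of 8 naive and memory genes, 3 were at least 2-fold lower, among them Lef1, a transcription factor of naive T cells (227 and 102 CPM, ratio 0.449). Of 7 measured cell cycle genes 6 were at least 2-fold higher, with Top2a at 23.2 and 133 CPM. Of 9 other co-receptor genes none differed by 2-fold; Cd5 stood at 101 and 186 CPM.

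Markers of other cells and of handling moved too. The heat shock gene Hspa1a gave 0 KP and 112 KPF1F2 UMIs in CD8 T cells, and Jun stood at 426 and 92.9 CPM. Of 12 dissociation stress genes, 3 were at least 2-fold higher and 2 lower, against 9.03% of all genes either way. The summed NK cell markers, which include the effector gene Gzma, stood at 281 and 538 CPM in CD8 T cells. The regulatory T cell markers stood at 372 and 772 CPM, but most of both sums was Cd3e (312 and 688 CPM), a gene of all T cells. Alveolar macrophage markers stood at 304 and 196 CPM. The part of stress, depth and other cells in the receptor ratios was not tested.

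In Foxp3 T cells, the class with the highest Ctla4, Tnfrsf4 and Tnfrsf9 in both libraries, Ctla4 and Icos were higher in KPF1F2 and Pdcd1 and Tnfrsf9 lower, each by less than 2-fold. Ctla4 stood at 899 CPM in KP and 1169 CPM in KPF1F2 (ratio 1.30, 1.15 to 1.47), and 92.4% and 97.1% of cells had a UMI. Icos stood at 439.6 and 789 CPM (ratio 1.79, 1.52 to 2.11), with thinned shares of 52.2% and 67.7%. Tnfrsf4 was near equal at 1435 and 1480 CPM (ratio 1.03, 0.929 to 1.14). The interval of Icos lay farthest above 1 among the receptors of this class.

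Pdcd1 in Foxp3 T cells stood at 319 CPM in KP and 195 CPM in KPF1F2 (ratio 0.612, 0.465 to 0.799). The shares with a UMI were 58.0% and 42.0%, and 38.1% and 22.6% after thinning. In the summed counts of thinned cells the log2 ratio was -0.11, against -0.70 with all UMIs. Tnfrsf9 stood at 626 and 434 CPM (ratio 0.694, 0.577 to 0.832), while its share of cells was 61.3% and 60.9%. The Tnfrsf9 difference therefore lay in the UMIs per cell: with every cell given equal weight the log2 ratio was 0.04, and after thinning 0.41, against -0.53 in the summed counts. Lag3 stood at 29.8 and 38.5 CPM (ratio 1.29, 0.616 to 2.66), Havcr2 at 17.9 and 18.0 CPM, and Tigit at 10.4 and 7.71 CPM on 7 and 3 UMIs, with no difference detectable at this depth.

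None of the 6 measured receptors differed by 2-fold in Foxp3 T cells, against 9.50% of 5410 genes. The 8 receptors together held 3776 CPM in KP and 4132 CPM in KPF1F2 (ratio 1.09, 1.03 to 1.17). At least 3 of the 8 receptors were seen in 89.1% and 91.3% of these cells.

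Which cells were counted as regulatory mattered for Pdcd1 and Tnfrsf9. Sub-cluster 1, led by Foxp3 and Il1rl1, held 92.4% and 91.3% of the Foxp3 T cells and also 58 KP and 34 KPF1F2 T cells that counted as other T cells. In those 58 and 34 cells Pdcd1 was higher in KPF1F2 (234 and 362 CPM, ratio 1.55, 1.02 to 2.36), and so was Tnfrsf9 (362 and 646 CPM, ratio 1.78, 1.29 to 2.46). Over the whole of sub-cluster 1 (181 and 100 cells), Pdcd1 stood at 308 and 272 CPM (ratio 0.883, 0.702 to 1.10) and Tnfrsf9 at 584 and 604 CPM (ratio 1.03, 0.885 to 1.21). Icos (509 and 879 CPM, ratio 1.73, 1.50 to 1.99), Ctla4 (ratio 1.24, 1.12 to 1.39) and Tnfrsf4 (ratio 1.20, 1.10 to 1.32) were higher in KPF1F2 there as well. Over the sub-cluster the Tnfrsf9 levels were thus near equal. For Pdcd1 the interval of the ratio includes 1 there, while thinned shares of cells were 38.7% and 28.7%.

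Among 11 measured genes of regulatory T cells, 1 was at least 2-fold higher in KPF1F2 Foxp3 T cells, the cytokine gene Il10 (13.4 and 36.0 CPM, ratio 2.68, 1.08 to 7.03). Il2ra, the high-affinity chain of the interleukin 2 receptor, stood at 444 and 280.1 CPM (ratio 0.631). Of 9 other co-receptor genes none differed by 2-fold; Klrg1, an inhibitory lectin receptor of mature effector cells, was lower (215 and 116 CPM, ratio 0.539, 0.377 to 0.758) and Cd27 higher (133 and 216 CPM). Of 11 activation genes 1 was at least 2-fold lower, Tox2 (55.1 and 23.1 CPM), and none higher. Over all genes measured in Foxp3 T cells, 9.50% differed by 2-fold. Hspa1a stood at 4.47 and 786 CPM in these cells.

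The other T cells, a mixture of CD4 T cells, gamma-delta T cells, cells whose marker was missed and a few with markers of both kinds, had higher Pdcd1, Icos and Tnfrsf4 and lower Ctla4 in KPF1F2, all by less than 2-fold. Pdcd1 stood at 107 CPM in KP and 170.0 CPM in KPF1F2 (ratio 1.58, 1.33 to 1.88). In those with a Cd4 UMI it stood at 65.7 and 133 CPM (ratio 2.02, 1.46 to 2.81), and in those without at 139 and 196 CPM (ratio 1.41, 1.15 to 1.73). Both subsets thus had the higher level in KPF1F2.

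Ctla4 stood at 303 and 257 CPM in other T cells (ratio 0.850, 0.752 to 0.960). With a Cd4 UMI it was near equal (339.7 and 334 CPM), and without one it was lower in KPF1F2 (275 and 203 CPM, ratio 0.740, 0.620 to 0.882). Icos stood at 461 and 566 CPM (ratio 1.23, 1.12 to 1.34), and here the Cd4-positive cells had the larger ratio (1.46, against 1.07 without Cd4). Tnfrsf4 stood at 272 and 346 CPM (ratio 1.27, 1.13 to 1.42), and Tnfrsf9 at 54.3 and 69.7 CPM (ratio 1.28, 0.991 to 1.66). Lag3, just under the level counted as measured, stood at 13.1 and 26.8 CPM (33 and 43 UMIs, ratio 2.05, 1.27 to 3.33). Havcr2 (6.34 and 9.34 CPM) and Tigit (2.78 and 4.98 CPM) were low in both libraries. None of the 5 measured receptors differed by 2-fold, against 3.00% of 5208 genes.

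The other T cells also differed in effector genes, and in makeup: sub-cluster 7, led by Ret, Gzmk and Esm1, gave 10 of them (2.04%) in KP and 57 (16.1%) in KPF1F2, and sub-cluster 0 gave 17.6% and 7.32%. Over all genes measured in other T cells, 3.00% differed by 2-fold. Of 10 measured effector genes 5 were at least 2-fold higher in KPF1F2, such as Gzmk (22.6 and 238 CPM, ratio 10.5, 7.95 to 14.2) and the chemokine gene Ccl5 (561 and 3438 CPM). Eomes, a transcription factor of effector and memory T cells, stood at 7.14 and 80.3 CPM (ratio 11.3, 6.85 to 19.6). Ifng, the interferon that induces PD-L1, stood at 46.8 and 114 CPM (ratio 2.44, 1.92 to 3.10). Of 8 co-receptor genes 1 was at least 2-fold higher, Cd27 (72.2 and 149 CPM, ratio 2.06, 1.69 to 2.52).

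**Figure D2:**
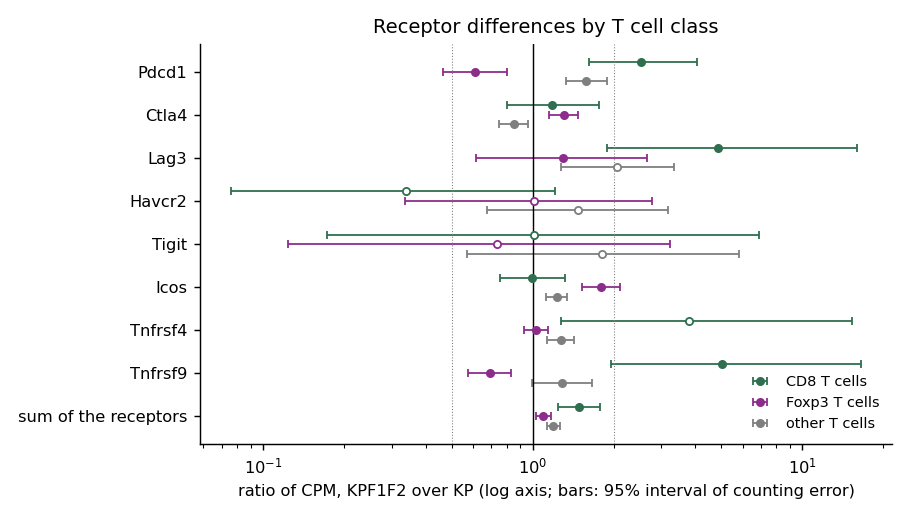
Ratio of the KPF1F2 to the KP level of each receptor in CD8, Foxp3 and other T cells, on a log axis with exact 95% intervals. Dotted lines mark 2-fold, and open markers are receptors below the level counted as measured. Pdcd1 lies at 2.52 in CD8 T cells, 0.612 in Foxp3 T cells and 1.58 in other T cells.

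By sub-cluster, Pdcd1 was higher in KPF1F2 in several kinds of T cell with intervals that did not reach 1. In sub-cluster 5 (Cd163l1, Il17a and Blk, genes of interleukin 17-producing gamma-delta T cells) it stood at 247 and 479.8 CPM (ratio 1.94, 1.51 to 2.50). In sub-cluster 2 (Sostdc1, Dapl1, Il2, Il21) it stood at 46.6 and 155 CPM (ratio 3.32, 1.83 to 6.33), and in sub-cluster 8 at 41.6 and 101 CPM (ratio 2.42, 1.41 to 4.27). The cycling sub-cluster 4 (Ccna2, Ube2c, Birc5) went the other way (177 and 101 CPM, ratio 0.571, 0.346 to 0.928). Lag3 was likewise higher in sub-cluster 2 (14.6 and 88.6 CPM, 5 and 24 UMIs, ratio 6.08, 2.27 to 20.4).

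Ctla4 had its widest gap in sub-cluster 5, where KP held 126 UMIs and KPF1F2 5 (218 and 20.9 CPM, ratio 0.0959, 0.0306 to 0.230). The share of those cells with a Ctla4 UMI was 36.4% in KP and 5.77% in KPF1F2. Tnfrsf4 stood at 347 and 631 CPM in sub-cluster 2 (ratio 1.82, 1.43 to 2.32), which also had higher Icos (426 and 698 CPM). In the cycling sub-cluster 4, Tnfrsf4 (635 and 251 CPM) and Tnfrsf9 (219 and 41.8 CPM) were lower in KPF1F2. That sub-cluster had 15 KP and 19 KPF1F2 cells, of which 11 in all carried a Foxp3 UMI and a CD3 UMI.

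Lymphocytes without a CD3 UMI (62 KP and 42 KPF1F2 cells, medians 2458 and 4046 UMIs) were not T cells by the rule above, and their Pdcd1 stood at 67.1 CPM in KP and 409.6 CPM in KPF1F2 (12 and 78 UMIs, ratio 6.10, 3.30 to 12.3). The background there was wide, with 26.7% of 2716 genes differing by 2-fold, and the makeup differed. NK-like sub-cluster 6 gave 34 KP and 9 KPF1F2 of these cells, none with a Pdcd1 UMI. Sub-cluster 9, which resembled type 2 innate lymphoid cells (Il13, Il1rl1, Il5), made up 9.68% of them in KP and 73.8% in KPF1F2. Within sub-cluster 9 the CD3-negative cells held 212 and 503 CPM of Pdcd1 (6 and 31 cells, ratio 2.38, 0.974 to 7.55), an interval that includes equal levels.

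Several receptors were also measured outside lymphocytes. Havcr2 was highest in type 1 dendritic cells, which present tumour antigen to CD8 T cells, at 261 CPM in KP and 172 CPM in KPF1F2 (ratio 0.660, 0.521 to 0.836). By CPM it was lower in KPF1F2 in every other myeloid class with at least 20 UMIs in each library. Alveolar macrophages stood at 66.4 and 47.0 CPM (ratio 0.707, 0.644 to 0.777) and other macrophages at 71.0 and 41.8 CPM (ratio 0.589, 0.520 to 0.668). In type 2 dendritic cells it stood at 76.8 and 58.3 CPM, with Poisson intervals that overlap (59.0 to 98.3 and 43.0 to 77.3). In KP the intervals of type 2 dendritic cells and both macrophage classes overlapped, as did those of neutrophils and monocytes, so their order is not resolved.

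Neutrophils stood at 141 and 44.6 CPM of Havcr2, but 28.5% of 4508 genes differed by 2-fold between the libraries in that class and the median log2 ratio of all genes there was -0.52. Cluster 14 gave 32 KP and 299 KPF1F2 neutrophils and cluster 16 gave 156 and 226. Within cluster 16 Havcr2 stood at 169 and 97.2 CPM, and within cluster 14 at 8.77 and 7.30 CPM. Lag3 was highest in plasmacytoid dendritic cells, at 104 and 117 CPM (ratio 1.13, 0.562 to 2.41), a class that produces type I interferon and is known to carry this receptor.

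Migratory dendritic cells (30 KP and 28 KPF1F2 cells), which carry antigen to lymph nodes, held high Tnfrsf9 at 417 and 294 CPM (ratio 0.706, 0.561 to 0.885). Their Tnfrsf4 stood at 181 and 64.4 CPM (ratio 0.356, 0.224 to 0.550), and their Havcr2 at 41.1 CPM in KP with 1 UMI in KPF1F2. All 3 receptors were thus lower in KPF1F2, in a class where 12.8% of 4477 genes differed by 2-fold, but with no doublets removed the log2 ratio of Tnfrsf9 was 0.03, against -0.50. Few cells carried these UMIs. In KP the top 5 cells held 62 of 88 UMIs of Tnfrsf4, 15 of 20 of Havcr2 and 99 of 203 of Tnfrsf9. In KPF1F2 they held 23 of 28 of Tnfrsf4 and 75 of 128 of Tnfrsf9. Without the top cell of each library the Tnfrsf4 ratio was 0.357 (0.210 to 0.585).

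Tnfrsf9 in the class named other macrophages was lower in KPF1F2, in the opposite direction to the summed counts of CD8 T cells. That class was not alike in the 2 libraries. Its summed alveolar macrophage markers were at 13.3% of the alveolar class in KP and 52.3% in KPF1F2. Its summed macrophage markers stood at 24916 and 12190 CPM. Tnfrsf9 stood at 138 CPM in KP and 12.3 CPM in KPF1F2 (1133 and 130 UMIs), 11.3-fold lower (9.38 to 13.6). The share of cells with a UMI was 18.3% and 5.82%, or 10.6% and 1.31% after thinning, and positive cells held 13.8 and 4.06 UMIs on average. Of the 5312 genes measured in this class 3.86% differed by 2-fold.

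Most of that difference lay in cluster 2 (235 KP and 301 KPF1F2 cells, led by Ccl24, Mmp12 and Rnase2a), where 959 KP UMIs came from 63 cells and 52 KPF1F2 UMIs from 13 (209.8 and 7.58 CPM, 27.7-fold lower, 20.9 to 37.3). Without cluster 2 the log2 ratio of the class was -1.16, against -3.39 with it. Cluster 2 itself was not alike in the 2 libraries: the summed alveolar macrophage markers stood at 6214 CPM in KP and 27557 CPM in KPF1F2 there, and the summed macrophage markers at 13313 and 6299 CPM. None of the 8 genes in either set was at 0. The part of this difference in makeup was not tested.

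**Figure D3:**
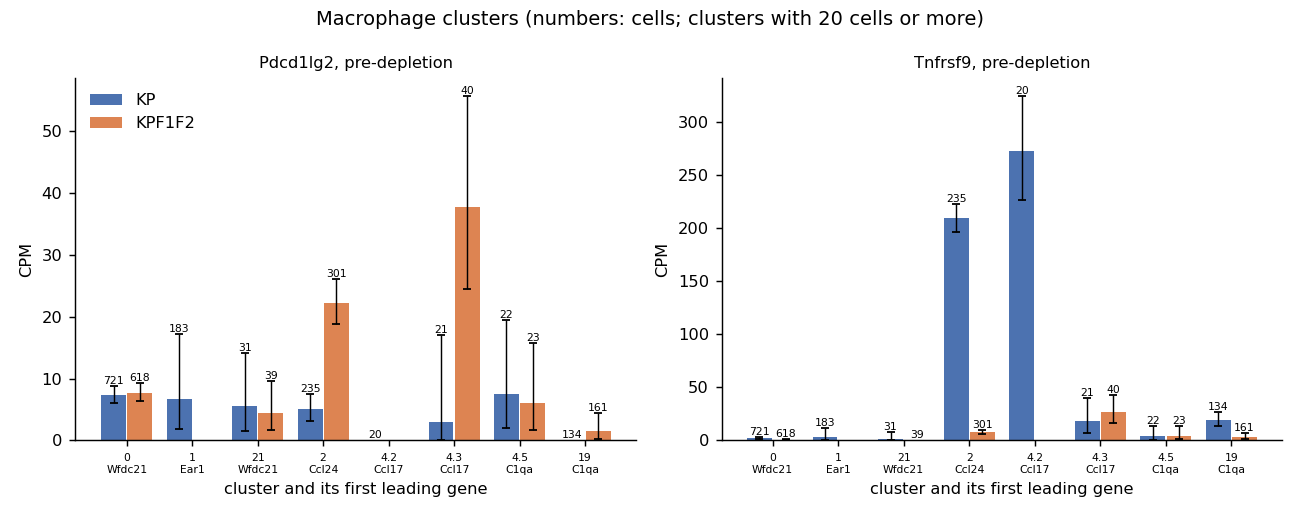
Level of Pdcd1lg2 and Tnfrsf9 in each macrophage cluster with at least 20 cells in a library, in CPM, for KP and KPF1F2 before depletion. Error bars are exact Poisson 95% intervals and the numbers are cells. Cluster 2 shows both contrasts: Pdcd1lg2 at 5.03 in KP and 22.2 in KPF1F2, Tnfrsf9 at 209.8 and 7.58.

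In epithelial cells, which include the tumour cells, Tnfrsf9 was higher in KPF1F2 both before and after depletion. Before depletion it stood at 5.91 CPM in KP (110 UMIs in 9.75% of 677 cells) and 33.9 CPM in KPF1F2 (170 UMIs in 33.0% of 191 cells), a ratio of 5.74 (4.49 to 7.36). Of 5640 genes, 8.0% differed by 2-fold in this comparison. After depletion, in 2669 and 1945 cells, it stood at 5.83 and 25.1 CPM (ratio 4.30, 3.75 to 4.95), where 8.60% of 5696 genes differed by 2-fold. Thinned shares were 1.53% and 7.10% before depletion and 1.59% and 4.88% after it. Alveolar macrophages, at a similar depth to the pre-depletion epithelial cells (medians 18856 and 21744 against 20552 and 20442 UMIs), had Tnfrsf9 UMIs in 1.71% and 0.888% of cells, and the summed T cell markers stood at 10.0 and 3.59 CPM in epithelial cells. The summed markers of other macrophages, which held much Tnfrsf9 in KP, were higher there. They were at 6.09% and 2.34% of their own class before depletion, and at 8.33% and 2.27% after it. How far RNA of other cells adds to these Tnfrsf9 levels was not tested.

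The difference followed the epithelial clusters, which were largely separate in the 2 genotypes. Cluster 27 (S100g, Sftpd, Mme) was almost only in KPF1F2, with 90 cells before and 908 after depletion, and held 57.0 and 41.5 CPM. Cluster 8 (the gastrokine Gkn2) was a KP cluster of 130 and 706 cells and held 0.622 and 0.494 CPM. In cluster 5 (Retnla, Sftpa1), which had many cells of both genotypes, Tnfrsf9 stood at 15.2 and 21.7 CPM before depletion (ratio 1.43, 0.855 to 2.32) and at 18.2 and 23.8 CPM after it (ratio 1.31, 1.01 to 1.71). Lag3 was also higher in KPF1F2 epithelial cells after depletion, though low (1.60 and 3.47 CPM, ratio 2.17, 1.63 to 2.92). It was seen in 2.36% and 6.89% of these cells, or 0.204% and 0.696% after thinning. Before depletion Lag3 stood at 1.18 and 2.00 CPM, with intervals that overlap (0.741 to 1.79 and 0.957 to 3.67). Tnfrsf4 stood at 5.37 and 4.60 CPM in epithelial cells after depletion.

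**Figure D4:**
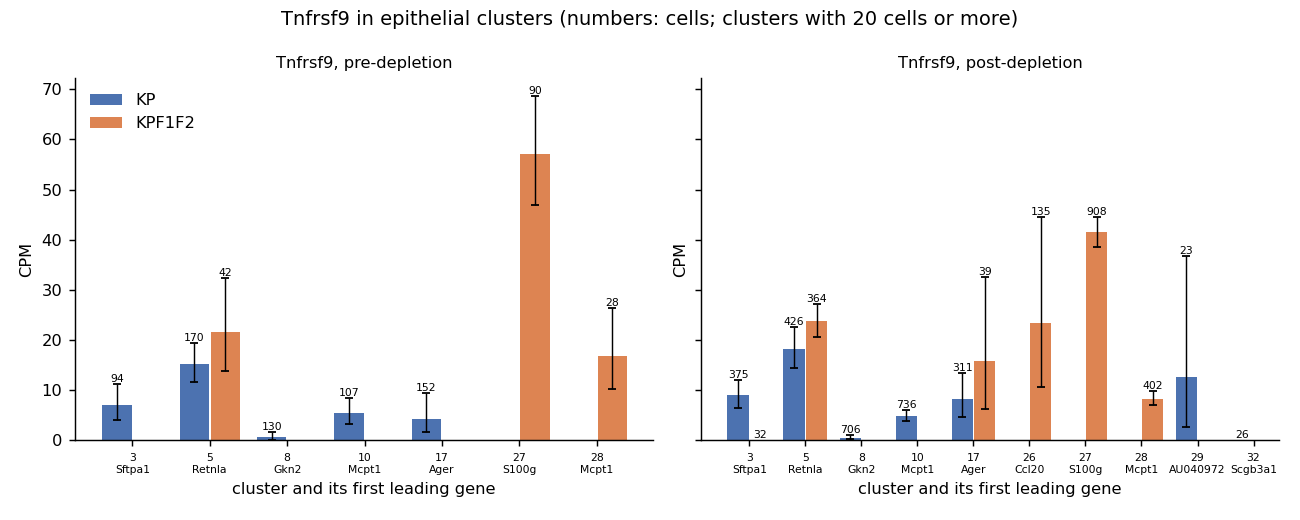
Level of Tnfrsf9 in epithelial clusters before and after depletion, in CPM, for KP and KPF1F2. Error bars are exact Poisson 95% intervals and the numbers are cells. Cluster 27 of KPF1F2 stands at 57.0 and 41.5, KP cluster 8 at 0.622 and 0.494, and the shared cluster 5 between 15.2 and 23.8.

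The promoters of Tnfrsf9 and of both ligands are printed because Tnfrsf9 differed between genotypes in opposite directions in different classes, and the ligands were the genes to be compared in myeloid and epithelial cells. Each run holds the 250 bases before a RefSeq transcript start in GRCm38.p6, 5′ to 3′ on the gene's strand, and capitals mark matches to 1 of 5 motifs searched on both strands. The motifs were the interferon response element (GAAA, any 2 bases and GAAA again, in 2.98% of 32851 promoters of this length), the gamma-activated sequence TTCNNNGAA (7.02%), the STAT6 site (TTC and GAA with any 4 bases between, 5.85%), TGANTCA (AP-1, 6.75%) and GGGANTTCC (NF-kB, 1.43%). The first is the start of Tnfrsf9 at chr4:150927749-150927998, with matches of the gamma-activated, NF-kB and AP-1 motifs 136, 42 and 15 bases before the start. The others are Cd274 at chr19:29367188-29367437, with no match, and its neighbour Pdcd1lg2 at chr19:29410669-29410918, with a STAT6 match 82 bases before the start.
Tnfrsf9: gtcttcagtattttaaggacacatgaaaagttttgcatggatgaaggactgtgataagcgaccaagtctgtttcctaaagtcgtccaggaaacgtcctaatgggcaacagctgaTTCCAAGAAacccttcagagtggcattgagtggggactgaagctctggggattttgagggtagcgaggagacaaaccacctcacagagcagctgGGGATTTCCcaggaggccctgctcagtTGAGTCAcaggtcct
Cd274: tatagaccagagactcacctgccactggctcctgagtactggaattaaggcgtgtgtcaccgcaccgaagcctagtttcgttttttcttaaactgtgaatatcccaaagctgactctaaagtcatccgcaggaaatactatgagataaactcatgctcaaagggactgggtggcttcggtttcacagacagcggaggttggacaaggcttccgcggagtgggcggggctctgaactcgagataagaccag
Pdcd1lg2: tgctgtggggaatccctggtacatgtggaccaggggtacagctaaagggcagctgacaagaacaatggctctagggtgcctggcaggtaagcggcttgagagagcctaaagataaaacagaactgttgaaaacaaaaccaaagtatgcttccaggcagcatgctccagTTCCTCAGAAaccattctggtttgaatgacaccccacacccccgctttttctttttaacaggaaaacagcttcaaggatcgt
RefSeq promoters were found for 8 of the 10 genes, with 9 starts. The other start of Tnfrsf9 (chr4:150919905-150920154) had no match, and Havcr2 had an AP-1 match 200 bases before its start. A match is a match of letters and was not tested as a binding site.

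Cd274 (ENSMUSG00000016496, 7 exons, plus strand of chromosome 19, 29367455 to 29388095) was highest in migratory dendritic cells in both libraries, and differed little between genotypes in dendritic cells and macrophages as whole classes. In all 120 KP and 161 KPF1F2 dendritic cells it stood at 103 and 93.4 CPM (ratio 0.911, 0.750 to 1.11), where 3.94% of 5097 genes differed by 2-fold. Its direction there turned with the scaling, with log2 ratios of -0.13 by CPM, 0.03 with edgeR's TMM factors and 0.08 with DESeq2's size factors, which raised the median gene of this class by 0.17 and 0.21. In migratory dendritic cells it stood at 271 and 354 CPM (ratio 1.31, 1.03 to 1.66; log2 0.38, or 1.25 with no doublets removed and 0.09 among cells of at least 2000 UMIs), and 28 of 30 KP cells and all 28 KPF1F2 cells had a UMI. Type 2 dendritic cells stood at 80.5 and 55.8 CPM (ratio 0.694, 0.466 to 1.03; log2 -0.52, or 0.23 among cells of at least 2000 UMIs), and type 1 dendritic cells gave 6 and 21 UMIs (10.6 and 25.0 CPM). No Cd274 UMI was seen in the 12 KP and 34 KPF1F2 plasmacytoid dendritic cells.

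Alveolar macrophages held Cd274 at 103 CPM in KP and 127 CPM in KPF1F2 (ratio 1.24, 1.16 to 1.32), in a class where 2.77% of 5370 genes differed by 2-fold. The other macrophages stood at 64.9 and 67.4 CPM (ratio 1.04, 0.928 to 1.16), and all macrophages together at 90.5 and 103 CPM (ratio 1.13, 1.07 to 1.20). Monocytes were lower in KPF1F2 (115 and 69.4 CPM, ratio 0.602, 0.380 to 0.956), and so were neutrophils (141 and 95.2 CPM, ratio 0.676, 0.519 to 0.886). The direction in neutrophils turned too: the log2 ratio was -0.56 by CPM, 0.21 with the TMM factors and 0.19 with the size factors, which raised the median gene of neutrophils by 0.77 and 0.76. In KP the interval of monocytes overlapped those of neutrophils and alveolar macrophages, and type 2 dendritic cells overlapped alveolar and other macrophages. In KPF1F2 alveolar macrophages stood above neutrophils, and monocytes, other macrophages and type 2 dendritic cells overlapped.

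Epithelial cells held little Cd274, with 39 UMIs in 30 KP cells and 19 UMIs in 7 KPF1F2 cells before depletion (2.10 and 3.79 CPM, ratio 1.81, 0.987 to 3.21). A single cell held 13 of the 19 KPF1F2 UMIs, and without the top cell of each library the ratio was 0.641 (0.220 to 1.54). After depletion there were 28 and 43 UMIs (0.651 and 0.911 CPM, ratio 1.40, 0.850 to 2.34). The level in epithelial cells before depletion was 2.04% and 2.98% of that in alveolar macrophages, while the summed alveolar macrophage markers there were at 0.670% and 0.339% of their own class, and the markers of other macrophages at 6.09% and 2.34%. No difference of Cd274 between genotypes was thus resolved in epithelial cells, and how far these UMIs come from RNA of other cells was not tested.

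Pdcd1lg2 (ENSMUSG00000016498, 6 exons, plus strand of chromosome 19, 29410919 to 29471161) was also highest in migratory dendritic cells, and its main difference between genotypes lay in the other macrophages. Migratory dendritic cells stood at 177 CPM in KP and 136 CPM in KPF1F2 (ratio 0.768, 0.542 to 1.08), with UMIs in 60.0% and 67.9% of cells. Dendritic cells as a whole stood at 48.8 and 37.2 CPM (ratio 0.763, 0.565 to 1.03). Both intervals include equal levels, and with no doublets removed the migratory cells had a log2 ratio of 0.29, against -0.38. Type 2 dendritic cells stood at 12.2 and 35.2 CPM on 10 and 29 UMIs (ratio 2.89, 1.37 to 6.64), in a class where 9.21% of 5082 genes differed by 2-fold, but thinned shares were 2.13% and 1.96%.

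In the other macrophages Pdcd1lg2 stood at 3.66 CPM in KP (30 UMIs in 5.13% of 448 cells) and 18.1 CPM in KPF1F2 (192 UMIs in 15.1% of 550 cells), a ratio of 4.96 (3.36 to 7.55). Alveolar macrophages were near equal at 7.25 and 7.36 CPM. The higher level in KPF1F2 was seen in cluster 2 (5.03 and 22.2 CPM, ratio 4.40, 2.83 to 7.16), the cluster whose Tnfrsf9 was lower, and in cluster 4.3 (1 and 25 UMIs), whereas cluster 19, led by the complement gene C1qa, gave 0 and 3 UMIs. Cd274 in cluster 2 stood at 92.6 and 86.3 CPM, so the ligands of PD-1 did not differ alike there. As above, alveolar macrophage markers were higher in KPF1F2 in cluster 2 and in other macrophages as a whole, and their part was not tested.

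Pdcd1lg2 was found in lymphocytes and neutrophils as well. Foxp3 T cells stood at 64.1 and 77.1 CPM (ratio 1.20, 0.729 to 1.96), with UMIs in 27.7% and 30.4% of cells, the highest level after migratory dendritic cells, though the interval overlapped that of neutrophils in KP (46.4 to 86.3 and 33.9 to 69.9). Neutrophils stood at 49.5 and 10.4 CPM (ratio 0.210, 0.109 to 0.389). All neutrophil UMIs were in cluster 16, where the levels were 60.1 and 25.0 CPM (ratio 0.416, 0.217 to 0.772). Epithelial cells gave 4 and 0 UMIs before depletion, and 23 and 3 after it.

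**Figure D5:**
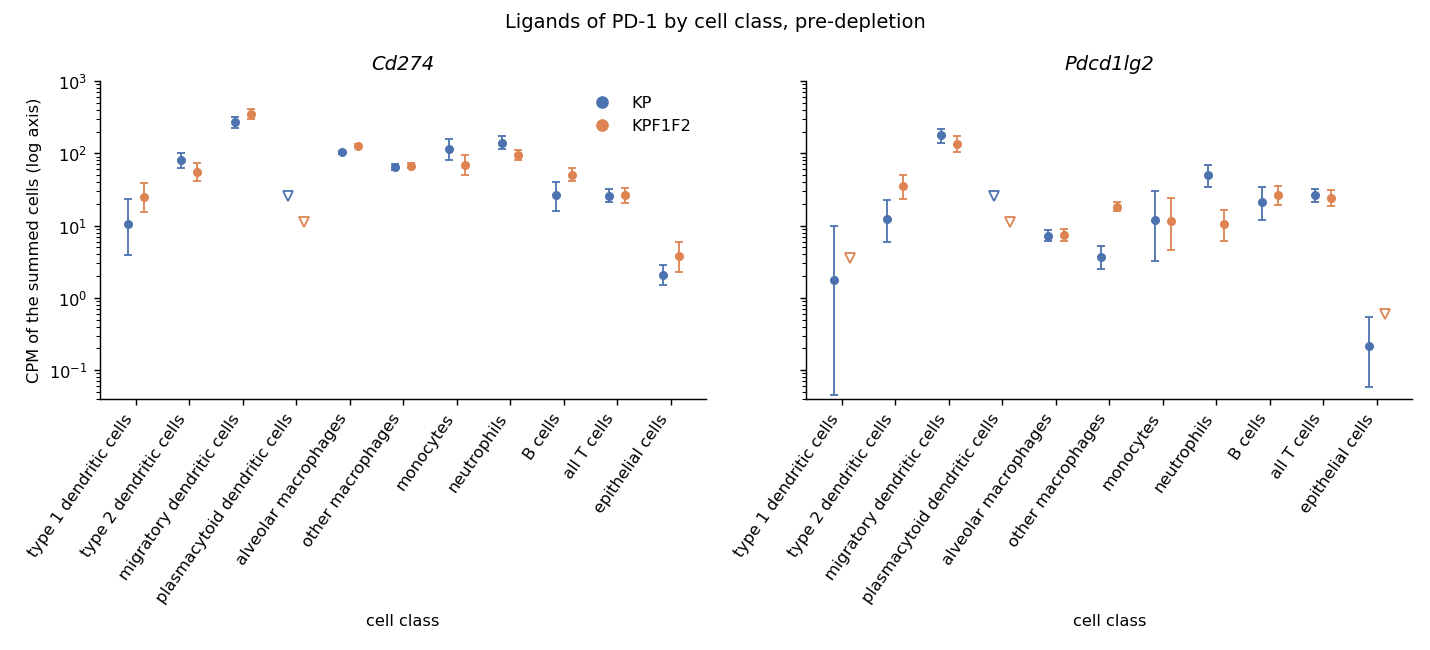
Level of Cd274 and Pdcd1lg2 by cell class before depletion, in CPM on a log axis, with exact Poisson 95% intervals. Open triangles stand for no UMI and are drawn at the limit that a count of 0 allows. Both genes peak in migratory dendritic cells: Cd274 at 271 in KP and 354 in KPF1F2, Pdcd1lg2 at 177 and 136.

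Partner genes of the checkpoint receptors showed a contrast in Tnfsf9, the ligand of 4-1BB. It was higher in KPF1F2 in dendritic cells (44.7 and 138 CPM, ratio 3.09, 2.44 to 3.95) and in the other macrophages (28.9 and 97.1 CPM, ratio 3.36, 2.91 to 3.88), and lower in epithelial cells (70.8 and 55.9 CPM, ratio 0.789). It was the 1 of 12 partner ligand genes measured in dendritic cells, and the 1 of 9 in other macrophages, to differ by 2-fold; none of 6 did in alveolar macrophages and none of 7 in epithelial cells. The CTLA-4 ligands Cd80 (66.3 and 46.5 CPM) and Cd86 (303 and 222 CPM) were lower in KPF1F2 dendritic cells, and Pvr, a ligand of TIGIT, was higher (39.7 and 73.1 CPM, ratio 1.84). Stress genes moved there too, with Hspa1a at 14.6 and 287 CPM.

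Genes of the interferon gamma pathway, which raises Cd274, differed by 2-fold in few cases. In dendritic cells 1 of 12 measured genes did, against 3.94% of all genes. It was the chemokine gene Cxcl9 (8 and 333 UMIs, 4.02 and 141 CPM, ratio 35.0, 17.6 to 81.8). Most of the list went the other way there, with 3 genes higher and 9 lower in KPF1F2. The median log2 ratio was -0.30, against -0.08 over all measured genes. No gene of this list differed by 2-fold in alveolar macrophages (0 of 6), other macrophages (0 of 11) or epithelial cells (0 of 6). In epithelial cells all 6 were higher in KPF1F2, with a median log2 ratio of 0.50, against 0.09 over all measured genes there.

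The genes whose levels ran most like each checkpoint gene were taken from 9892 genes over 26 points, which are 13 cell classes in each of the pre-depletion libraries. The points share libraries and depth, so Pearson's r is a description only. Pdcd1 ran with Ubash3a (r 0.964), Cxcr6 (0.957) and Tnfsf11 (0.955). Ctla4 ran with another of the 10 genes, Icos (0.951), and with Camk4 and Lck (both 0.949), and Icos with Cd96 (0.978) and Bcl11b (0.977). Havcr2 ran with Arpc2 (0.911) and Arpc1b (0.892) and with Apobr (0.896). Tnfrsf4 ran with Izumo1r (0.914), Ttn (0.911) and Camk4 (0.910), and Tnfrsf9 less closely with Ikzf4 (0.832), Abca2 (0.774) and Il2ra (0.773). Cd274 ran with Ptpn1 (0.911) and Usf2 (0.882), and Pdcd1lg2 with Batf (0.872), Rac2 (0.866) and Tank (0.847). Lag3 had the loosest neighbours, Cd3e (0.723), Ccnb2 (0.718) and Clspn (0.712). Tigit ran with Ubash3a (0.922), Thy1 (0.904) and Crmp1 (0.903) on few UMIs.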

How the data were processed

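Single cells of tumour-bearing lung were sequenced in 4 libraries, 1 per group. The deposited matrices hold counts (UMIs per gene and barcode), made by the authors on mm10, per the submitters' processing notes, with Cell Ranger (version 6.0.0 in the file headers). Its settings, its annotation and whether it used strand are not given here by any label or header. Positions are from the GENCODE annotation of GRCm38, and promoters from RefSeq (GRCm38.p6).

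Cells with at least 1000 UMIs, 500 genes and at most 20% mitochondrial UMIs were kept (scanpy 1.11.5). Scrublet marked 4, 3, 1 and 4 cells (KP and KPF1F2 before depletion, then after it), so the highest-scoring 0.8% per 1000 barcodes were removed as doublets (181, 131, 247 and 91 cells). Cells were clustered on 2000 variable genes, without the 10 genes and their partner lists, 30 principal components and 15 neighbours (Leiden, resolution 1, igraph 0.11.9), and named from at least 3 markers. For lymphocyte sub-clusters, genes were scaled within each library. The markers Trac, Trbc1, Trbc2, Trdc, Tcrg-C1, Trdv4 and Iglc1 and the list genes Nectin2, Nectin3 and Cd244a were not analysed here.

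UMIs were summed per class and library. Intervals are exact Poisson (levels), Clopper-Pearson (shares) and conditional binomial (ratios) at 95%. Log2 ratios use a pseudocount of 1 CPM, which pulls low genes toward 0, while the ratios in the text use none. A gene differed by 2-fold on the log2 scale with that pseudocount. The limit for a count of 0 is 3 counts. Shares were also taken after thinning cells to 2000 UMIs. TMM (edgeR 4.0.16) and size factors (DESeq2 1.42.0) served as other scalings. The ratio and interval calculations were tested on simulated data. The 10 genes and all lists were chosen with earlier results of these data known. Named genes were all 10, up to 4 measured genes per list and class in its main direction and 2 in the other, of which some are printed, and the 3 most alike in profile. Some genes that this rule names are not reported here.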

Additional observations from a re-analysis of the deposited data

Results flagged for a closer look

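Pdcd1 differed in direction between T cell classes: its log2 ratio of KPF1F2 over KP was 1.31 in CD8 T cells and 0.66 in other T cells, and -0.70 in Foxp3 T cells, or -0.11 there once cells were thinned to 2000 UMIs. Tnfrsf9 likewise stood at 2.22 in CD8 T cells and -0.53 in Foxp3 T cells. In CD8 T cells, however, 20 of its 33 KPF1F2 UMIs came from 3 cells of the regulatory sub-cluster. Ctla4 went the other way, at 0.38 in Foxp3 T cells and -0.23 in other T cells. With 1 library per group these differences between classes were not tested, and over the whole regulatory sub-cluster the ratio of Tnfrsf9 was 1.03 and that of Pdcd1 0.883.

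Some signals lay outside the classes in which the genes were to be compared. Pdcd1 in lymphocytes without a CD3 UMI had a log2 ratio of 2.59. Cd274 in B cells, which present antigen and make antibody, had one of 0.92 (20 and 89 UMIs), and 20 of the 89 KPF1F2 UMIs came from 1 cell. Without the top cell of each library the B cell ratio was 1.68 (0.987 to 3.00). After depletion, epithelial cells had log2 ratios of 1.93 for Tnfrsf9 and 0.78 for Lag3. Lag3 there was higher in cluster 5, which both genotypes share (3 and 40 UMIs, 0.682 and 4.51 CPM, ratio 6.62, 2.11 to 33.4).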

How the results depend on the processing

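Of 161 alternatives to the 9 main comparisons, 139 moved the value by less than its interval and 22 by more, some across 0. As log2 ratios, the receptor sum in CD8 T cells (0.57) was -0.05 with sub-clusters in place of marker UMIs, 0.95 without cycling cells and 1.19 in thinned cells. In Foxp3 T cells (0.13) it was 0.36 with cells weighted equally, 0.26 at resolution 2, 0.02 with either sub-cluster rule, 0.42 without cycling cells and 0.50 thinned. In other T cells (0.25) it was 0.14 with cells weighted equally, and 0.38 both without cycling cells and without sub-cluster 7. Cd274 in dendritic cells (-0.13) was 0.16 with no doublets removed and -0.53 thinned. Cd274 in macrophages (0.18) was 0.07 with cells weighted equally and 0.27 without cluster 2. Cd274 in epithelial cells (0.63) was -0.31 with cells weighted equally, -0.38 with no doublets removed, -1.83 thinned and -0.39 without the top cells. Pdcd1lg2 in macrophages (0.85) was 0.44 with no doublets removed and 0.30 without cluster 2. Of 746 alternatives for 41 single results, 669 moved by less than the interval, 69 by more and 8 reversed. All 8 were of results of at least 2-fold. Those were Havcr2 in CD8 T cells (-1.42; 1.32 without cycling cells, 0.15 without the top cells, 0.22 with the 20% sub-cluster rule), Tnfrsf4 in CD8 T cells (1.80; -0.01 and -0.21 with the sub-cluster rules), Tnfrsf9 in CD8 T cells (2.22; -0.22 with the 20% rule), Cd274 in type 1 dendritic cells (1.16; -0.18 without cycling cells) and Pdcd1lg2 in type 2 dendritic cells (1.46; -0.11 thinned). Results under 2-fold changed sign too and are not among the 8. Examples are Ctla4 in CD8 T cells (0.24) and Tnfrsf9 in other T cells (0.35). With sub-clusters in place of marker UMIs these were -0.75 and -0.41. Tnfrsf9 in Foxp3 T cells (-0.53) was 0.41 thinned, and Icos in CD8 T cells (-0.01) kept its sign in 9 of 20 alternatives. The causes were not tested. Alternatives without sub-cluster 7, cluster 2 or the top cells, and the 20% rule, were chosen after seeing the data. No paired analysis was possible because each group has 1 library.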
